A study of Homo sapiens with 4 samples.

Results

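The subject is the U-2 OS cells that carried or lacked transcripts of GDF15 after ionizing radiation (IR), chosen by the GDF15 count of each cell. Of 495 irradiated cells, 210 were GDF15-positive (2 or more counts of GDF15; 100 in experiment 1 and 110 in experiment 2) and 207 were GDF15-negative (no count; 105 and 102). The other 78 cells held 1 count and were left out (42 and 36), so the 2 classes made up 417 of the 1220 cells of the series. U-2 OS is a long-established line from a human osteosarcoma, and its p53 is wild type. IR cultures received 4 Gy and UT cultures were untreated, in 2 experiments with 1 library per group, and the labels name no other allele or agent in either group. The series design gives 48 h between IR and sorting and the treatment label gives 24 h; the study's methods also state 48 h, which is used here. Single cells were sorted into wells and profiled by SORT-seq, which reads 3′ ends of polyadenylated RNA and counts molecules per well by random tags (unique molecular identifiers, UMIs).

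GDF15 is a secreted cytokine of the TGF-β superfamily that is made under stress and acts through the receptor GFRAL and its partner RET in the brainstem. Its gene is a direct target of p53, the transcription factor that DNA damage activates, and is also switched on by the integrated stress response, a pathway that passes through the transcription factor ATF4. p53 halts the cell cycle chiefly through CDKN1A (p21), which keeps the genes of S, G2 and M phase repressed, and it limits itself by inducing MDM2, the ubiquitin ligase that destroys it. ATF3 encodes a stress-induced transcription factor reached by both pathways.

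GDF15 itself is described without a test, because its count chose the cells. It was detected in 57.5% of IR cells in experiment 1 and 58.9% in experiment 2, against 7.26% and 9.26% of UT cells. Among positive cells the median count was 6 and 5 UMIs and the highest was 47 and 65. The 10 cells with the most GDF15 held 29.7% and 37.6% of all GDF15 counts of their library. Per 10000 gene counts (CP10k), positive cells ranged from 0.415 to 40.8 with a median of 2.44 in experiment 1, and from 0.281 to 30.004 with a median of 2.02 in experiment 2. At the threshold the classes touched. The cells just outside, with 1 count, had a median of 0.515 and 0.486 CP10k, and those just inside, with 2 to 3 counts, had 1.03 and 0.955 CP10k. 19 and 24 cells were positive by exactly 2 counts.

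**Figure D1:**
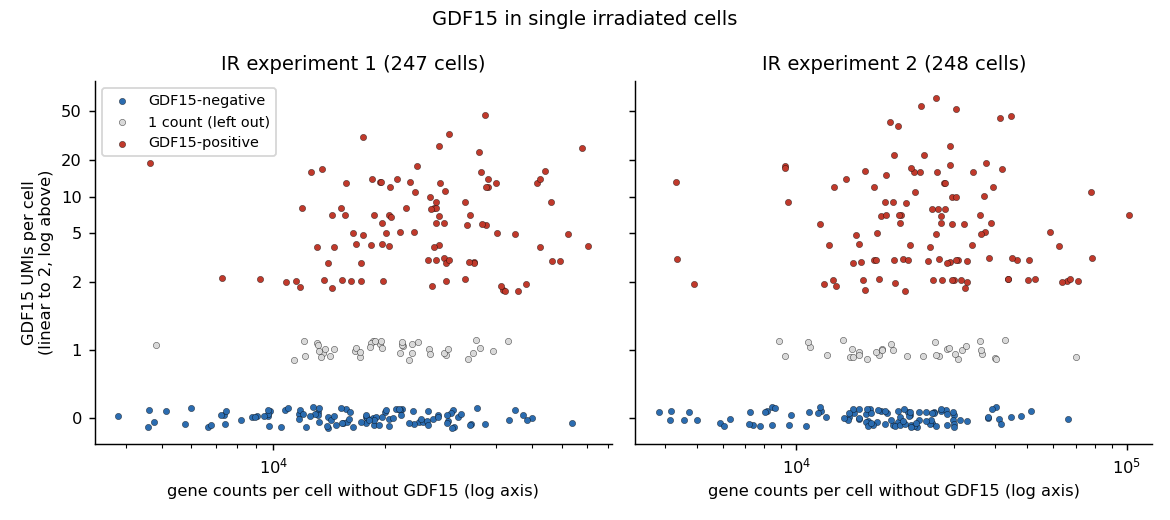
Each point is 1 irradiated cell, with its gene counts without GDF15 on the x axis (log scale) and its GDF15 UMIs on the y axis (linear to 2, log above), in experiment 1 (left, 247 cells) and experiment 2 (right, 248 cells). Blue cells had no GDF15 UMI, grey cells had 1 and were left out, and red cells had 2 or more, reaching 47 and 65. Points are jittered vertically.

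Positive cells held more RNA counts than negative cells. Median gene counts were 26937 in positive and 17210 in negative cells of experiment 1, and 26541 and 19423 in experiment 2. Gene counts per spike-in count were 575 and 441 in experiment 1 and 113 and 76.5 in experiment 2. Detection of a gene depends on depth, so each positive cell was paired with a negative cell of the same library whose total lay within 0.2 on the log2 scale. This left 77 pairs in experiment 1 and 87 in experiment 2, with median totals of 20805 and 20503 counts and of 22265 and 21222 counts. All comparisons below use these cells unless stated. The libraries shared well barcodes (173 between the IR libraries), since plates reuse the same barcode set.

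Markers of the line and of other cells were checked first. SPARC, COL1A1 and VIM, which mark mesenchymal cells and matrix-producing bone cells, had 6364, 12717 and 9819 UMIs in IR experiment 1 and 6918, 10780 and 11385 in experiment 2. These were the most abundant of 16 such markers. The osteoblast factor SP7 was at 0 in both libraries, and COL1A2 (4 and 10 UMIs), IBSP (1 and 0), TWIST1 (0 and 2) and PRRX1 (33 and 26) were near 0 or low. Of 15 markers of other cell types, KRT19 was among those at 0 and only EPCAM and KRT8 passed the filter on low counts, and neither was called in the comparison of the classes. The epithelial keratin gene KRT8 had 1430 and 1807 UMIs in 234 and 235 cells. The summed level of the 15 markers had a median of 2.55 CP10k in positive and 2.14 in negative cells of experiment 1 and of 2.37 and 2.87 in experiment 2. Of the 16 mesenchymal and osteoblast markers 11 were tested and 1 was called, SPP1 (osteopontin), which was higher in positive cells.

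GDF15-positive cells had more p53-target transcripts and fewer cell cycle transcripts than GDF15-negative cells of the same library, at matched totals. Counts were summed over the cells of each class and library, and the sums were compared with edgeR's quasi-likelihood test with the library as a block. Of 12200 genes tested, 331 were higher (2.71%) and 425 lower (3.48%) in positive cells at an adjusted p under 0.05, together 6.20% of genes. All 756 had the same direction in both libraries, which the choice of genes by this test favours. The test rests on 2 libraries per class and 1 residual degree of freedom, and without the library term edgeR called 0 genes (720 with an unadjusted p under 0.05), while DESeq2 with the library term called 73. A negative cell is one in which GDF15 was not detected at its depth, not one shown to lack it.

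Among the p53 targets, 23 of the 47 genes tested (51 on the list) rose and 0 fell, with a median log2 difference of 0.41 against -0.0044 over all genes tested. The median was 0.48 in experiment 1 and 0.32 in experiment 2, and 41 of the 47 lay higher in both. DESeq2 called 2 of them, CDKN1A and MDM2. CDKN1A, the gene of the cell cycle inhibitor p21, had 3.44 CP10k in UT, 7.73 in negative and 13.3 in positive cells of experiment 1, and 1.83, 6.69 and 12.3 in experiment 2. The order was the same in both experiments, and the 2 values of each class did not overlap those of the others. CDKN1A was 1.72-fold higher in positive than in negative cells (log2 difference 0.78, SE 0.06, edgeR adjusted p = 2.1e-13). Its mean was 22.8 counts per cell in the library where it was highest, far below the number of sequences that 6-base UMIs allow.

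MDM2, which closes the negative feedback on p53, had 0.818 CP10k in UT, 1.56 in negative and 3.46 in positive cells of experiment 1, and 0.689, 2.05 and 3.70 in experiment 2. Negative cells of both experiments stood between the untreated and the positive cells. The difference between the IR classes was 1.84-fold (log2 0.88, SE 0.10, edgeR adjusted p = 3.7e-09). In cells thinned to 8000 UMIs, MDM2 was detected in 85.3% of positive cells (95% exact binomial interval 75.3 to 92.4) and 65.3% of negative cells (53.5 to 76.0) in experiment 1, and in 81.0% (70.9 to 88.7) and 70.2% (59.3 to 79.7) in experiment 2. The intervals overlapped in both experiments and cover counting error only. Unthinned, MDM2 was detected in all 77 positive cells and 88.3% of negative cells of experiment 1, and in 89.7% and 86.2% in experiment 2. The thinned shares leave out 2 cells of each class in experiment 1 and 3 of each in experiment 2 that were shallower.

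Of 10 arrest genes, 7 were higher in positive cells. GADD45A, a stress sensor of the G2 checkpoint, had 1.72 and 1.72 CP10k in negative and 3.34 and 2.50 in positive cells of experiments 1 and 2 (log2 difference 0.50, SE 0.10, edgeR adjusted p = 6.7e-04). BTG2, an anti-proliferative co-repressor, had 0.743 and 0.624 CP10k in negative and 1.20 and 1.25 in positive cells (log2 0.71, SE 0.14, adjusted p = 3.2e-04). Of 9 genes that feed back on p53, 4 were higher, including TRIAP1 (0.52, SE 0.12) and the cyclin gene CCNG2 (0.60, SE 0.14).

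The apoptosis group had 5 higher genes of 12 tested. PMAIP1 (NOXA) had 0.998 and 1.28 CP10k in negative and 1.605 and 1.95 in positive cells (log2 0.74, SE 0.11, edgeR adjusted p = 6.0e-06), and BBC3 (PUMA) had 0.138 and 0.431 against 0.443 and 0.599 (0.94, SE 0.20, adjusted p = 0.0018). Both encode BH3-only proteins that disable the guardians of mitochondria. The death receptor gene FAS was not called, at 0.597 and 0.655 CP10k in negative and 0.789 and 0.755 in positive cells (0.33, SE 0.15, edgeR adjusted p = 0.198). FAS was far lower in UT cells, at 0.141 and 0.181 CP10k.

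Of 10 tested genes of metabolism and autophagy, 6 were higher, among them SESN2, a stress-induced inhibitor of mTORC1 signalling (0.67, SE 0.13), SUSD6 (0.75, SE 0.18) and TIGAR, which lowers glycolytic flux (0.36, SE 0.09). Of 6 repair genes 1 was higher, RRM2B, the p53-inducible subunit of ribonucleotide reductase (0.46, SE 0.10). TP53BP1, whose protein marks DNA breaks, was not called (log2 0.29, SE 0.13, edgeR adjusted p = 0.230), with 0.50 in experiment 1 and 0.046 in experiment 2.

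**Figure D2:**
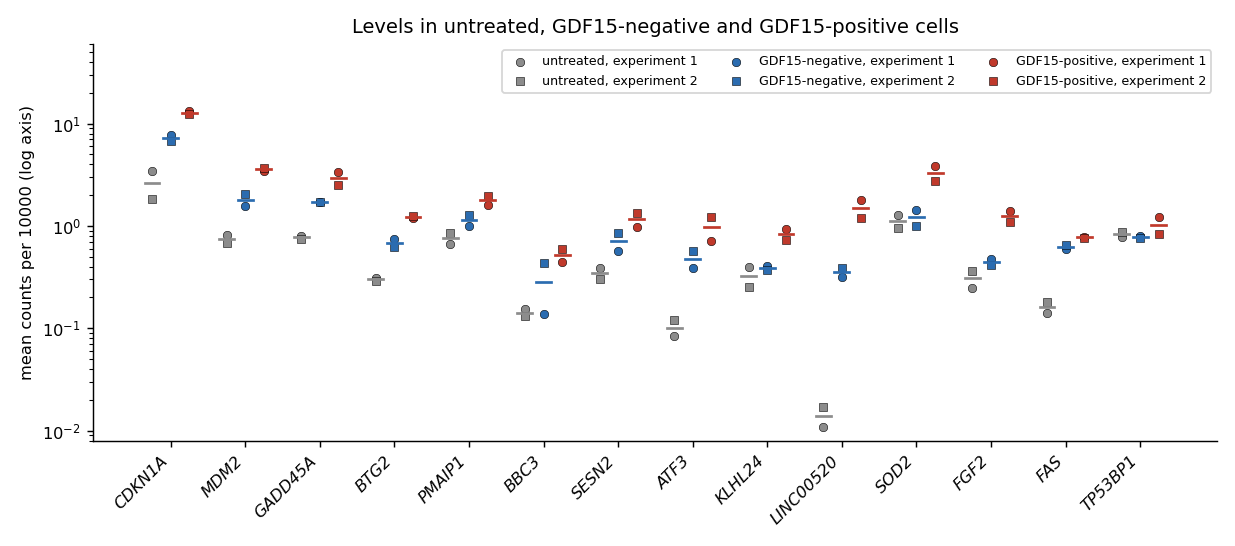
Mean counts per 10000 (log axis) of 14 genes in untreated (grey), GDF15-negative (blue) and GDF15-positive (red) cells, drawn as circles (experiment 1) and squares (experiment 2), the bar being their mean. CDKN1A and MDM2 step up from untreated to negative to positive cells in both experiments, while TP53BP1 has 0.801 and 0.765 in negative and 1.22 and 0.834 in positive cells.

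Cell by cell the classes overlapped. Summed over the 51 p53 targets, positive cells of experiment 1 ran from 48.5 to 228 CP10k with a median of 72.1, and negative cells from 21.1 to 103 with a median of 52.8. In experiment 2 the medians were 74.0 and 57.8, with ranges of 33.9 to 130 and 21.6 to 99.6. Untreated cells had medians of 28.5 and 26.9. Across all irradiated cells, grouped by GDF15 count and not matched on totals, the mean sum was 55.8 at 0 counts, 58.9 at 1, 68.7 at 2 to 3, 74.2 at 4 to 9 and 85.4 at 10 or more in experiment 1. In experiment 2 it was 57.3, 61.1, 68.1, 77.0 and 76.1, so the top 2 groups there were not ordered. The groups share a library and are described without a test.

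**Figure D3:**
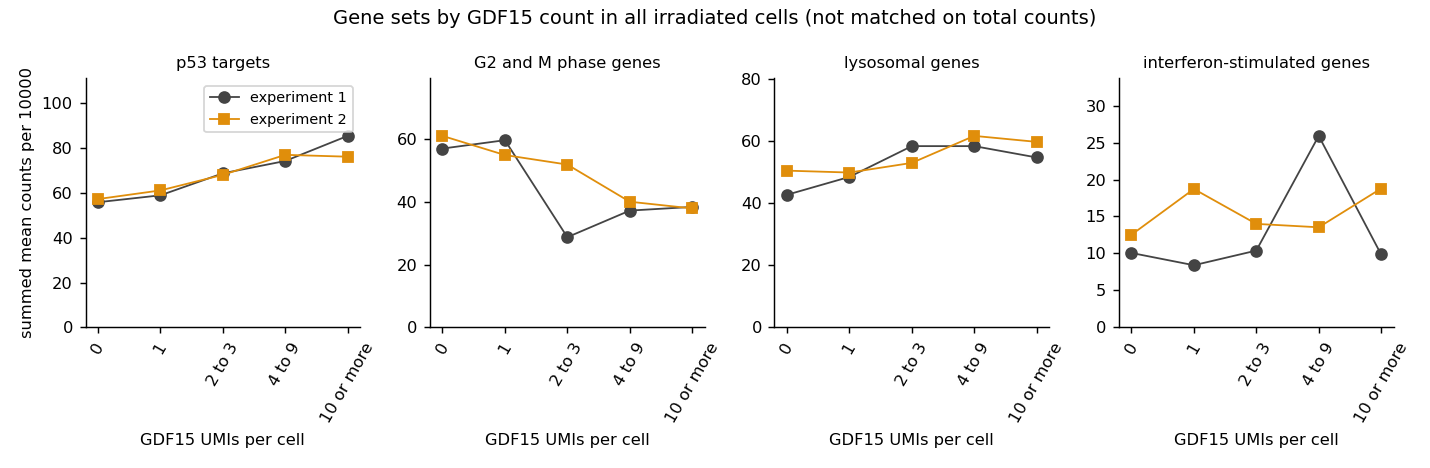
Summed mean counts per 10000 of 4 gene sets in all irradiated cells, grouped by GDF15 UMIs per cell, for experiment 1 (dark circles) and experiment 2 (orange squares). The p53 targets go from 55.8 to 85.4 in experiment 1 and from 57.3 to 76.1 in experiment 2. The G2 and M phase genes go from 56.9 to 38.3 and from 60.9 to 37.9, but in experiment 1 they are lowest at 2 to 3 UMIs (28.7). The interferon-stimulated genes follow no order.

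Genes of cell division were lower in GDF15-positive cells. Of 53 G2 and M phase genes, all of which were tested, 48 fell and 0 rose, with a median log2 difference of -0.98 (-1.17 in experiment 1 and -0.82 in experiment 2), and all 53 were lower in both libraries. DESeq2 called 23 of them. CDC20, which activates the anaphase-promoting complex, had 2.02 CP10k in UT, 1.21 in negative and 0.483 in positive cells of experiment 1 and 1.92, 2.45 and 1.03 in experiment 2. Untreated and negative cells changed order between the experiments, while positive cells were lowest in both. CDC20 was 2.27-fold lower in positive than in negative cells (log2 -1.19, SE 0.12, edgeR adjusted p = 4.7e-10).

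The mitotic kinase gene PLK1 had 1.16 and 1.14 CP10k in negative and 0.470 and 0.494 in positive cells (log2 -1.28, SE 0.14, adjusted p = 3.0e-09). CCNB2, a mitotic cyclin gene, had 1.596 and 2.20 against 0.699 and 1.05 (-1.12, SE 0.12, adjusted p = 1.5e-09). The largest fall among called genes with at least 20 CPM was that of HJURP, the chaperone that loads the centromeric histone, from 0.378 and 0.441 to 0.0816 and 0.0972 CP10k (-1.87, SE 0.24, edgeR adjusted p = 1.2e-07). The other 11 genes with the largest falls were SGO1, CKAP2L, PSRC1, AURKA, CDCA8, PLK1, CCNA2, TTK, RACGAP1, BUB1B and SHCBP1, with log2 differences from -1.72 to -1.25. Apart from CCNA2, a cyclin of S and G2 phase, the functions known for these genes lie in mitosis and cytokinesis.

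Of 43 S phase genes 17 fell and 0 rose (median log2 -0.52), and DESeq2 called 1. RRM2, the S phase subunit of ribonucleotide reductase, had 2.81 and 1.84 CP10k in negative and 1.33 and 1.095 in positive cells (-0.76, SE 0.10, edgeR adjusted p = 4.5e-07), and CLSPN (claspin, a checkpoint adaptor) had 1.13 and 0.683 against 0.441 and 0.400 (-0.84, SE 0.15). Together the G2, M and S phase lists gave 65 of the 425 genes that were lower.

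The classes also differed in how many cells had low levels of cycle genes. The summed level of G2 and M phase genes ran from 4.96 to 127 CP10k in positive and from 7.46 to 245 in negative cells of experiment 1. With a cut at 25 CP10k, chosen after the values were seen, 53 of 77 positive cells (68.8%) and 30 of 77 negative cells (39.0%) lay under it in experiment 1, and 47 of 87 (54.0%) and 36 of 87 (41.4%) in experiment 2. In UT the shares were 14 of 72 (19.4%) and 12 of 85 (14.1%). Between 4 and 9 cells of each class lay within 20 to 30 CP10k, next to the cut. The median sum was 13.2 CP10k in positive, 48.5 in negative and 88.8 in untreated cells of experiment 1, and 19.5, 53.3 and 70.3 in experiment 2.

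**Figure D4:**
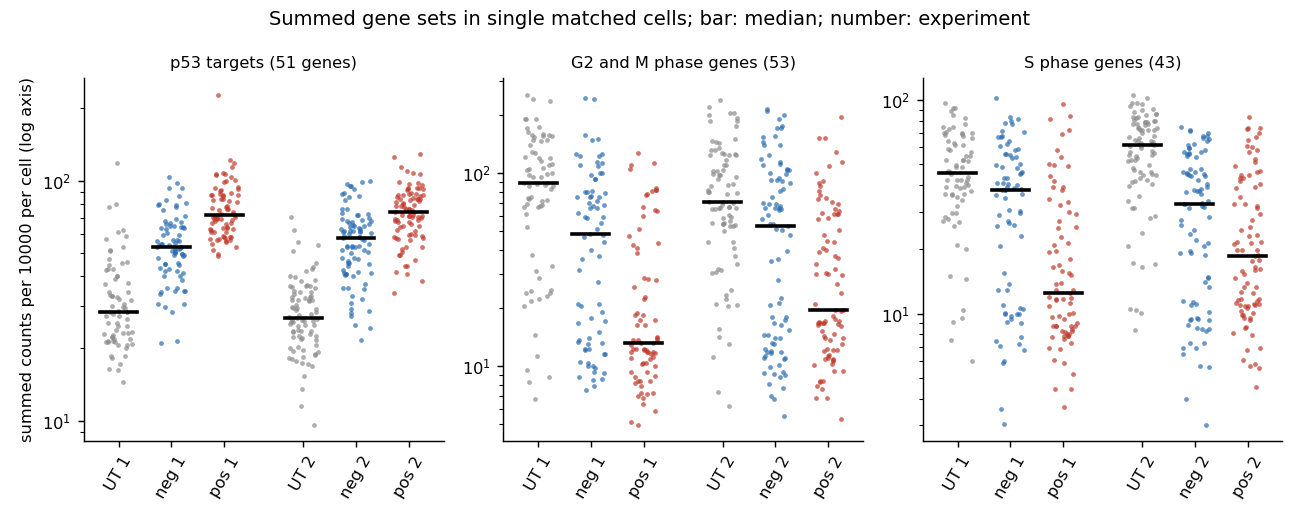
Each point is 1 matched cell and its summed counts per 10000 (log axis) of p53 targets (left), G2 and M phase genes (middle) and S phase genes (right), in untreated (UT), GDF15-negative (neg) and GDF15-positive (pos) cells of experiments 1 and 2, with a bar at the median. The p53 targets rise in steps with medians of 28.5, 52.8 and 72.1 in experiment 1, while G2 and M phase genes spread from 4.96 to 127 in positive and from 7.46 to 245 in negative cells of experiment 1.

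When pairs were also matched on the summed level of cycle genes, 58 and 68 pairs remained, and 86 genes were higher (0.734%) and 70 lower (0.598%), of which 136 were also called without that matching. The G2 and M phase list then had 1 lower gene and a median of -0.22, and the S phase list had 0 called genes in edgeR and a median of 0.020. These lists make up the matched sum, so their smaller differences follow from the matching. The p53 targets had 10 higher genes and a median of 0.34. CDKN1A (log2 0.47, adjusted p = 1.1e-07), MDM2 (0.68, 3.0e-08), GADD45A (0.43, 0.0054), PMAIP1 (0.62, 2.9e-04) and ATF3 (0.71, 0.0058) were still called by edgeR, whereas SESN2 (0.44, adjusted p = 0.109), TP53INP1 (0.37, 0.397) and TIGAR (0.21, 0.435) were not.

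The promoters of falling G2 and M phase genes are shown because most of that list shared a short element. The CHR, through which p21 and the DREAM complex are known to keep G2 and M phase genes repressed in resting cells, was searched as TTTGAA or TTCGAA on both strands in the 250 bases before and 50 bases after each start site in RefSeq (GRCh38.p14). It was found in 32 of 45 matched promoters of the whole G2 and M phase list (71.1%). Among the 48 genes of that list called lower, 30 of the 40 matched promoters held it. Since nearly the whole list fell, the 2 shares describe mostly the same genes, and a link between the element and the fall was not tested. It lay in 2 of 33 S phase promoters (6.06%) and in 98 of 340 promoters of all genes called lower (28.8%). The shares were 16.6% of all 27305 promoters and 11.1% of the 9435 that belong to tested genes. The windows of CCNA2, which is among the largest falls, and CCNB1 held no match and are not printed. The CCAAT box (CCAAT), whose letters can overlap the CHR at their ends, lay in 31 of the same 40 (77.5%), 24 of 33 S phase promoters (72.7%) and 35.7% of all. Capitals mark the CHR in the windows chr1:43358731-43359030 (plus strand), chr16:23678639-23678938 (plus), chr15:59104896-59105195 (plus) and chr2:233854486-233854785 (minus), and a match is a string of letters, not a measured site.
CDC20: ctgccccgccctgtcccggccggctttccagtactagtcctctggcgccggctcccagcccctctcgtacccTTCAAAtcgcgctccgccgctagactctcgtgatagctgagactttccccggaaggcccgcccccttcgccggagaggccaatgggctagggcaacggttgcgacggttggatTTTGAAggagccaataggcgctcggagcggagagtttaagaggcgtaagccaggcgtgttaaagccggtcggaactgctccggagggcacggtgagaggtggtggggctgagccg
PLK1: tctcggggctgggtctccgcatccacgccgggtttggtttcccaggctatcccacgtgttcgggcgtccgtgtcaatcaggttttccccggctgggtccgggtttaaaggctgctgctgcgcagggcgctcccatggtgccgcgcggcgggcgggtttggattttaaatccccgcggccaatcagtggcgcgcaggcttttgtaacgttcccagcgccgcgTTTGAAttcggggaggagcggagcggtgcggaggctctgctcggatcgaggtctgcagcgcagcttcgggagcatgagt
CCNB2: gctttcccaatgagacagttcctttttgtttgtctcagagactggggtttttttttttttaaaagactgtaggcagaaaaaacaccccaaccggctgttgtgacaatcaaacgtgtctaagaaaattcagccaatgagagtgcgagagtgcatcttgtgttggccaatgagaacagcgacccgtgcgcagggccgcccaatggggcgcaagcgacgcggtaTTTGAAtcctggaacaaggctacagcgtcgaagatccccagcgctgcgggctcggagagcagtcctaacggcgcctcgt
HJURP: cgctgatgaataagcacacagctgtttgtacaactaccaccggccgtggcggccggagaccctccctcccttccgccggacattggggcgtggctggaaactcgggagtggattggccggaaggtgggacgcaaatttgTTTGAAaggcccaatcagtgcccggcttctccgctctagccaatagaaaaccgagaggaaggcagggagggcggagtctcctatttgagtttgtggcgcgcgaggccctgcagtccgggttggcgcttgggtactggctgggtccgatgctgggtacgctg

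ATF3, the other gene that marks the positive class, had 0.0838 CP10k in UT, 0.391 in negative and 0.716 in positive cells of experiment 1, and 0.1196, 0.567 and 1.22 in experiment 2. It was 1.97-fold higher in positive than in negative cells (log2 0.98, SE 0.15, edgeR adjusted p = 6.9e-06). The call was not made by DESeq2 (adjusted p = 0.227) or by edgeR in cells thinned to 8000 UMIs (log2 0.60, adjusted p = 0.181). That thinned fit set the classes anew by the thinned GDF15 count and matched no cells. The matched cells were also thinned with their classes kept. There ATF3 was detected in 32.0% of positive and 28.0% of negative cells of experiment 1 and in 45.2% and 23.8% in experiment 2. By GDF15 count and without matching, its level in experiment 1 was highest in the left-out cells with 1 count (0.899 CP10k), above the 0.593, 0.703 and 0.702 of the positive cells with 2 to 3, 4 to 9 and 10 or more counts. The integrated stress response split in both directions. Of 35 genes tested (37 on the list) 5 rose and 5 fell in edgeR, and the median was -0.062. DESeq2 called 0 of them (8 at an unadjusted p under 0.05). The genes that rose were ATF3, KLHL24, CEBPB (a partner of ATF4), NUPR1 (a stress co-regulator) and SQSTM1 (the autophagy receptor p62), with log2 differences from 0.55 to 1.14. Those that fell were the serine and one-carbon enzyme genes PHGDH and MTHFD2 and the amino acid transporter genes SLC7A11, SLC7A5 and SLC1A5, from -0.38 to -0.68. PHGDH, MTHFD2 and SLC7A11 were no longer called when cycle genes were matched. NUPR1, SQSTM1 and the 5 genes that fell were named after their values were seen. In the unfolded protein response of the endoplasmic reticulum edgeR and DESeq2 called 0 of 17 genes, with 2 at an unadjusted p under 0.05 in edgeR (MANF -0.26, SE 0.11, adjusted p = 0.162). Of 19 NRF2 targets only HMOX1, which breaks down haem, was called higher (5.26%, against 2.71% of all genes tested). Its log2 difference was 0.90 (SE 0.17, edgeR adjusted p = 2.9e-04), and 0.31 with cycle genes matched (edgeR adjusted p = 0.677).

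The largest rises lay outside the p53 list. LINC00520, a long non-coding RNA gene (chr14:55781132-55796731, minus strand, GENCODE release 44 on GRCh38), had 0.0110 CP10k in UT, 0.318 in negative and 1.81 in positive cells of experiment 1, and 0.0171, 0.392 and 1.20 in experiment 2. It was 4.24-fold higher in positive than in negative cells (log2 2.08, SE 0.16, edgeR adjusted p = 1.6e-10), and 1.78 with cycle genes matched. AL138828.1 (log2 2.45, SE 0.22) is annotated as antisense to PDE7B, and since the strand rule of the counting is not given in the sources used here, its reads cannot be told apart from those of that gene. DCDC2C (2.28, SE 0.25) and the long non-coding RNA gene UCA1 (1.93, SE 0.24) also rose. DCDC2C rested on 67 counts in 14 positive and 18 counts in 7 negative cells of experiment 2. Without matching it had 0.192 CP10k at 0 GDF15 counts, 0.186 at 2 to 3, 0.400 at 4 to 9 and 0.372 at 10 or more there. In experiment 1 these groups had 0.0721, 0.611, 0.643 and 0.852 CP10k. For UCA1, 1 cell held 28.0% of the counts in the positive cells of experiment 2. SOD2, the mitochondrial superoxide dismutase gene and an NF-κB target, had 1.27 and 0.949 CP10k in UT, 1.44 and 0.996 in negative and 3.89 and 2.77 in positive cells (log2 1.33, SE 0.10, adjusted p = 2.1e-13). Untreated and negative cells had similar levels of SOD2 and positive cells stood apart in both experiments. IL24, a cytokine of the IL-10 family, (1.46, SE 0.28) and CITED2, a transcriptional co-regulator, (1.23, SE 0.21) completed the genes with the largest rises outside the groups below. IL24 rested on 42 and 76 counts in 13 and 19 positive cells. Neither was called by DESeq2 (adjusted p = 0.753 and 0.399) or by edgeR in the thinned fit (adjusted p = 0.271 and 0.123). CITED2 was not called by edgeR with cycle genes matched (adjusted p = 0.0625).

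Secreted factors of senescence split. Of 35 tested (45 on the list), 7 rose and 3 fell, with a median of -0.057. The balance turned with the choice of cells, to 6 higher and 8 lower without matching and to 4 higher and 5 lower with cycle genes matched, and DESeq2 called 3, all higher. FGF2, a fibroblast growth factor, had 0.474 and 0.418 CP10k in negative and 1.42 and 1.095 in positive cells (log2 1.38, SE 0.14, edgeR adjusted p = 1.5e-09). MMP3, the matrix protease stromelysin, had 0.333 and 0.312 against 0.820 and 0.989 (1.47, SE 0.16, adjusted p = 3.7e-09), and 1 cell held 44.96% of its counts in the positive cells of experiment 2. IGFBP7 had 1.47 and 1.97 against 3.14 and 2.77 (0.81, SE 0.10, edgeR adjusted p = 2.1e-07). IL6 was called, but it rested on 33 and 13 counts in 12 and 7 positive cells and on 5 and 0 counts in negative cells, and single cells held 36.4% and 46.2% of the counts in positive cells. PLAU, the urokinase gene, fell by 0.79 on the log2 scale (SE 0.14).

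Interferon-stimulated genes were higher in part: 7 of 30 tested (41 on the list) rose and 0 fell, with a median of 0.30 that was 0.60 in experiment 1 and 0.15 in experiment 2. DESeq2 called 2 of them. IFIT3 had 0.890 and 0.897 CP10k in negative and 2.43 and 2.15 in positive cells (log2 1.18, SE 0.12, edgeR adjusted p = 1.5e-08), and ISG15, a ubiquitin-like protein gene, had 0.583 and 0.409 against 1.06 and 0.952 (1.005, SE 0.15, adjusted p = 2.3e-06). Without matching, IFIT3 in experiment 1 had 0.748 CP10k at 0 GDF15 counts, 3.86 at 4 to 9 and 0.321 at 10 or more. In experiment 2 these groups had 1.175, 1.99 and 2.065 CP10k. IFIT3 was detected in 33.8% of matched positive and 19.5% of matched negative cells of experiment 1, and in 37.9% and 36.8% in experiment 2. IFIT1 (1.19, SE 0.16), OASL (1.34, SE 0.19), DDX60 (1.28, SE 0.22) and IFIT2 (2.31, SE 0.34) were also higher, and OASL but not IFIT1, IFIT2 or DDX60 was called with cycle genes matched. IFIT2 rested on 20 and 18 positive cells, and 1 cell held 32.5% of its counts in the positive cells of experiment 1. DESeq2 did not call IFIT2, OASL or DDX60 (adjusted p = 0.180, 0.439 and 0.298). The thinned edgeR fit called OASL and DDX60 but not IFIT2 (adjusted p = 0.796). The sums of the interferon list leaned on few cells. The 3 highest cells held 33.3% of the interferon counts per 10000 of positive cells and 35.1% of those of negative cells in experiment 1, and 26.02% and 25.9% in experiment 2. Without them the mean was 13.1 CP10k in positive and 7.45 in negative cells of experiment 1, and 12.5 and 8.79 in experiment 2. The IFIT genes are a family of close copies, and reads shared between genes were not counted.

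The promoters of this group are shown because they carry the interferon-stimulated response element, searched as GAAA, any 2 bases and GAAA again, on both strands in the same windows. It was found in 21 of 33 matched promoters of the list (63.6%), in all 5 matched promoters among the 7 genes that rose, in 2.72% of the promoters of tested genes and in 3.65% of all promoters. Capitals mark it in chr10:89327747-89328046 (plus strand) and chr1:1013247-1013546 (plus strand), where it overlaps a second copy.
IFIT3: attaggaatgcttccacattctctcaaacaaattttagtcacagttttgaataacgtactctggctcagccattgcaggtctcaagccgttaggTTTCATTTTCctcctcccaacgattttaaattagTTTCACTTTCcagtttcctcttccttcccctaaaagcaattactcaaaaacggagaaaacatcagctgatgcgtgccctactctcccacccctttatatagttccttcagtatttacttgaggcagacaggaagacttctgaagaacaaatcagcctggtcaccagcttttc
ISG15: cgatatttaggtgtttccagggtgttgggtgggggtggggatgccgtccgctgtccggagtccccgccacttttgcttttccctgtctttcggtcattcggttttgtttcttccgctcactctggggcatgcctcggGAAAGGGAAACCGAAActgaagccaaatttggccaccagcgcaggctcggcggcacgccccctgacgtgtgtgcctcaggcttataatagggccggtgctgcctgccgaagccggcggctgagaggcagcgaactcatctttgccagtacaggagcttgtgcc

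The GDF15 promoter window (chr19:18385908-18386207, plus strand) is shown as the start of the gene that defines the classes. It held no exact match to the p53 half-site letters RRRCWWGYYY (R is A or G, W is A or T, Y is C or T). Nor did it match TGATGNAA (bound by ATF4 with a C/EBP factor) or TGANTCA (bound by AP-1), on either strand. These letters were present in 6.54%, 3.67% and 7.76% of all promoters, and p53 half-sites in 5 of 41 matched promoters of p53 targets (12.2%). Sites with mismatched letters were not searched, so the lack of a match does not mean that this window lacks a p53 site.
GDF15: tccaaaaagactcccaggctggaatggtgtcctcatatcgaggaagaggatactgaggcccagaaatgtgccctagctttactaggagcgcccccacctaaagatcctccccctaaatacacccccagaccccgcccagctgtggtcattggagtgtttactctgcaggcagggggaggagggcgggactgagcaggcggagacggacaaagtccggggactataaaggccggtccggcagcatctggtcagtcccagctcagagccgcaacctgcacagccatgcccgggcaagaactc

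Lysosomal genes rose together in part, 10 of 28 tested and 0 lower, with a median of 0.33 (0.31 in experiment 1 and 0.36 in experiment 2) and 24 higher in both. DESeq2 called 0 of them (4 at an unadjusted p under 0.05). TPP1, a lysosomal peptidase, had 2.24 and 1.53 CP10k in negative and 3.80 and 2.09 in positive cells (log2 0.58, SE 0.10, edgeR adjusted p = 6.7e-05), and the cathepsin gene CTSB had 4.85 and 4.90 against 6.91 and 6.39 (0.36, SE 0.07, adjusted p = 2.9e-04). With cycle genes matched 2 stayed called, TPP1 and CTSB, and the median was 0.25. Genes that had lower values in positive cells included matrix genes. THBS1 (thrombospondin) had 1.70 and 2.60 CP10k in negative and 0.995 and 1.32 in positive cells (log2 -0.87, SE 0.11, edgeR adjusted p = 6.1e-08), and FN1 (fibronectin) had 5.30 and 6.72 against 3.18 and 5.17 (-0.58, SE 0.08, adjusted p = 3.0e-06). Both kept their call with cycle genes matched, at -0.89 and -0.85. In that list of 29 matrix and YAP target genes 3 rose and 5 fell, with a median of -0.049.

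The ligand and receptor genes of the TGF-β family around GDF15 moved little. Of 20 ligand and receptor genes tested (33 on the list) 0 rose and 1 fell (5.0%, against 3.48% of all genes tested). The gene that fell was the receptor gene BMPR2 (log2 -0.39, SE 0.12, edgeR adjusted p = 0.0399), and DESeq2 called 0 genes of this list. Of 15 SMAD targets 4 rose (26.7%, against 2.71% of all genes tested) and 1 fell, the last being CCN2 (-0.37, SE 0.08, edgeR adjusted p = 0.0012). Their median was 0.045, and DESeq2 called 0. With cycle genes matched 0 rose and 2 fell. GFRAL had 0 UMIs in all irradiated cells and RET had 1 in each library. The processing protease gene FURIN had 1.22 and 1.28 CP10k in negative and 1.55 and 1.499 in positive cells and was not called (0.22, SE 0.11, edgeR adjusted p = 0.307), nor were the other 3 tested genes of that group, by edgeR or DESeq2 (0 of the 4 at an unadjusted p under 0.05).

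Other stress groups gave mixed counts. The glucose transporter gene SLC2A3 rose from 0.620 and 0.865 to 1.37 and 1.52 CP10k (log2 1.00, SE 0.13, edgeR adjusted p = 1.2e-07), with 3 rises and 1 fall among 26 glycolysis and hypoxia genes. Among 15 heat shock genes 1 rose, the small chaperone CRYAB (0.68, SE 0.08), and 4 fell, among them HSPA8 (-0.52, SE 0.06) and HSPD1 (-0.34, SE 0.07), neither of which was called with cycle genes matched. AP-1 and immediate early genes gave 1 rise in 22 (BTG1, 0.81, SE 0.15), or 4.55% against 2.71% of all genes tested. NF-κB targets gave 2 rises and 1 fall in 15. Cholesterol synthesis genes gave 0 calls by edgeR or DESeq2 in 24, with 2 at an unadjusted p under 0.05 in edgeR (INSIG1 0.43, SE 0.16, adjusted p = 0.125).

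Of the 13 mitochondrially encoded genes 9 fell and 1 rose, with a median of -0.20. MT-CO3 had 22.9 and 25.6 CP10k in negative and 17.3 and 20.7 in positive cells (log2 -0.47, SE 0.06, edgeR adjusted p = 1.7e-08). The median mitochondrial share of a cell was 2.15% in matched positive and 2.65% in matched negative cells of experiment 1, and 2.87% and 3.03% in experiment 2. Without matching it was 1.57% against 3.12% and 2.03% against 3.48%, and the median log2 difference of the 13 genes was -1.18. The part of depth in these differences was not tested. MT-CO3 had a mean of 58.5 counts per cell in its highest library, far below the number of sequences that the UMIs allow.

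**Figure D5:**
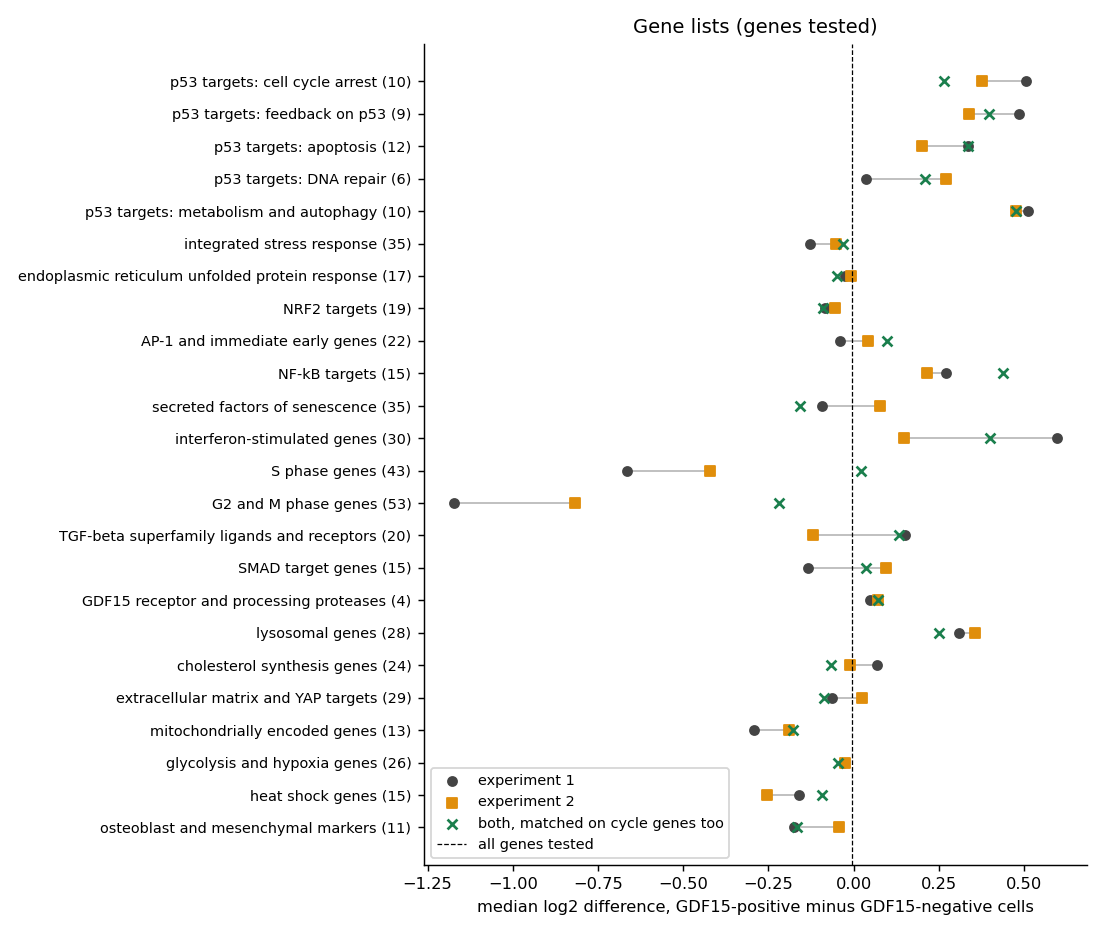
Median log2 difference between GDF15-positive and GDF15-negative cells over the tested genes of 24 lists (number tested in parentheses), in experiment 1 (dark circles), in experiment 2 (orange squares) and in both with pairs also matched on cycle genes (green crosses), with a dashed line at the median of all genes. G2 and M phase genes lie at -1.17 and -0.82. They move to -0.22 with matching on a sum that includes them, while the p53 lists stay on the positive side.

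To place the negative class, the matched GDF15-negative cells were compared with untreated cells without GDF15 at matched totals (72 and 85 pairs). This comparison shares the negative cells with the one above, so the values stand side by side and no overlap is drawn. Of 11754 genes 35 were higher (0.298%) and 14 lower (0.119%) in negative IR cells by edgeR, together 0.417%, and with the experiment as a block, which its number in the titles marks, 734 were higher (6.24%) and 617 lower (5.25%). p53 targets had a median log2 difference of 0.75 over 47 genes, against 0.0012 over all genes, with 5 higher and 0 lower, and with the block 35 higher and 0 lower. CDKN1A (log2 1.40, SE 0.26, edgeR adjusted p = 0.0587), MDM2 (1.22, SE 0.22, 0.0503) and SESN2 (1.01, adjusted p = 0.139) were not called without the block and were with it (adjusted p = 6.2e-32, 3.9e-13 and 4.3e-05). FAS (1.68, SE 0.25, adjusted p = 0.0262), GADD45A (1.25, SE 0.19, 0.0274) and ATF3 (2.13, SE 0.36, 0.0406) were called by edgeR in both fits.

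Genes differed in which step was larger. FAS had its larger step between untreated and GDF15-negative cells, with log2 differences of 1.68 there and 0.33 between the IR classes. SOD2 and SLC2A3 had log2 differences of 0.24 and 0.38 between untreated and negative cells (edgeR adjusted p = 0.761 and 0.580) and of 1.33 and 1.00 between the IR classes. FN1 had 1.21 (adjusted p = 0.0274) and -0.58, so that its level was highest in the negative cells of both experiments. For these pairs the difference between the 2 steps was not tested. G2 and M phase genes had medians of -0.67 and -0.98 for the same 2 steps, and the secreted factors had 0.75 and -0.057.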

How the data were processed

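The authors aligned the second read to the human genome (GRCh38) by STARsolo. Intronic and multi-gene reads were dropped, no minimum of UMIs was set, and a matrix per library was deposited; the submitters' notes also name Seurat 5. The deposited values are expected counts, at least 99.9% of which lay on the correction for UMI collisions over 4096 sequences of 6 bases, rounded to 3 significant digits, and not the plain counts assumed in the design. They were summed over cells per class and library and rounded. The 92 spike-in rows (0.191% to 1.21% of counts) and GDF15 stayed out of totals and tests, and 36601 genes were listed.

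Groups came from the sample titles. The members, gene lists and tests were chosen with earlier results of these data known. Cells are not replicates, so the 2 libraries per class were the replicates. The study describes them as independent sets of samples. Pairs were made by optimal 1 to 1 matching on total counts. Sums were fitted with edgeR 4.0.16 (R 4.3.3) after filterByExpr and TMM scaling, by its robust quasi-likelihood F test, with Benjamini-Hochberg adjustment over all genes, and tested on simulated data. Library was a block in the first fit, since both classes came from 1 plate; deviations of its 2 sums from the class means correlated at 0.548 across genes, and at 0.437 between IR and UT libraries of 1 experiment. DESeq2 1.42.0 was an alternative.

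Levels are means over cells of counts per 10000 gene counts. Total counts per IR library were 5736339 and 6186428, and intervals cover counting error only. Wells were sorted singly and no doublet caller was run. Genes named were GDF15, MDM2, ATF3, CDKN1A, FAS, GADD45A and TP53BP1, the 12 largest called log2 differences in each direction with at least 20 CPM and 1 direction in both libraries, up to 3 genes of each list by p, and others said to be named after their values were seen. Not all genes so named are reported here. Positions are from GENCODE release 44, and promoters from RefSeq.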

Additional observations from a re-analysis of the deposited data

How the results depend on the processing

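Between GDF15-positive and GDF15-negative cells (756 genes called, 331 higher and 425 lower), no replicate block gave 0 genes (0 higher, 0 lower), matching on cycle genes too gave 156 (86 and 70), counting cells as positive from 1 count gave 389 (172 and 217), thinning each cell to 8000 UMIs gave 247 (111 and 136) and DESeq2 gave 73 (24 and 49). The other 8 settings kept the counts within 1.5 times. All these fits used the same 2 libraries, so they do not test replication. The cause of these shifts was not tested. Cycle matching left 58 and 68 pairs. The thinned fit set the classes anew by the thinned GDF15 count and matched no cells. It held 52 and 59 positive and 136 and 130 negative cells. Of the named genes reported, RRM2, itself among the matched cycle genes, changed sign (0.031) when cycle genes were matched. With 1 library left out no test remains. All 756 genes had the same direction in each library, but they were called on these same 2 libraries, so this is no separate check. Between GDF15-negative and untreated cells (49 genes, 35 higher and 14 lower), the replicate block gave 1351 (734 and 617), unmatched cells 32 (4 lower), no filter 431 (268 and 163) and DESeq2 22 lower genes. Leaving out 1 library gave 118 to 264 genes (66 to 158 higher, 33 to 106 lower): 128 without IR experiment 1, 152 without IR experiment 2, 264 without UT experiment 1 and 118 without UT experiment 2, each with a lone sample assumed to vary like the other group. The depth of single cells limits GDF15 classes, since 1 or 0 counts need not mean no expression.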
